A study of Mus musculus with 6 samples.

Results

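The cathepsin genes described here are *Ctsa*, *Ctsb*, *Ctsc*, *Ctsd*, *Ctsh*, *Ctsk*, *Ctsl*, *Ctss* and *Ctsz*, 9 of the 12436 genes listed for a single-cell RNA-seq series on mouse skeletal muscle, and they were taken by symbol from the expression tables. Another 3 cathepsins in the same tables (*Ctsf*, *Ctso* and *Ctsw*) were not members of the set. Single cells came from the tibialis anterior muscle of male mice aged 3 to 5 months that carried the allele Gt(ROSA)26Sor<tm1(Fucci2aR)Jkn on a background written B6;129, a Fucci cell cycle reporter that needs Cre, and that were negative for Cre per the study's methods. Control mice ate a control diet, and hypothyroid mice ate a low-iodine diet with 0.15% propylthiouracil, a drug that blocks thyroid hormone synthesis. Muscle was taken without injury (day 0) or at day 5 or day 14 after cardiotoxin (50 μg/ml) was injected into the right muscle, a toxin that kills fibers and starts regeneration. Each of the 6 combinations of diet and day is 1 library made from pooled mice, so there are no replicates, no p-value is given, and all intervals (95%, exact) cover counting error only.

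The deposited values were turned back into unique molecular identifiers (UMIs, counted RNA molecules), and levels are given as CPM (UMIs of a gene per 1000000 UMIs) summed over the cells of a class. The 6 libraries held 528 to 3294 cells each and 11207 in all, with median depths of 3634 to 8055 UMIs per cell and the deepest cells in the hypothyroid day 5 library. A further 9062 cell columns were listed after a break in barcode order, of which 1680 repeat cells of another library exactly. In control day 0 all 1152 later columns copy hypothyroid day 14 cells. In hypothyroid day 0 all 528 copy control day 5 cells. The condition of the other later columns is not stated, and all 9062 were left out. All columns together numbered 2304 and 1056 at day 0, 4855 and 4309 at day 5, and 6095 and 1650 at day 14 (control, then hypothyroid). The cell numbers the study gives lie close to these totals for uninjured and early regenerating muscle but above them for the latest time, and the first runs fall well short of them in every library. Cells were assigned to classes by marker genes that hold no cathepsin, and 12.9% of cells stayed unassigned. Classes are called "X-like" for that reason. The fibro-adipogenic progenitor (FAP)-like class held 4433 cells, and its 12 markers summed to 36478 to 54753 CPM. The macrophage-like class held 899 cells, and all 14 markers on its list were detected, summing to 15535 to 23777 CPM. Uninjured muscle gave only 1 (control) and 3 (hypothyroid) macrophage-like cells, so macrophage-like values exist for days 5 and 14 alone. Pools of at least 20 cells were used, 49 in all.

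Cathepsins are proteases of the lysosome, made as inactive precursors, carried to the lysosome by mannose 6-phosphate receptors, and switched on by acid and by other proteases. Most are cysteine proteases of the papain family, cathepsin D is an aspartic protease, and cathepsin A is a serine carboxypeptidase. They degrade engulfed and worn-out protein, and some have further work: cathepsin S trims the invariant chain from MHC class II, cathepsin K degrades collagen in osteoclasts and fibroblasts, and cathepsin C activates granzymes and neutrophil proteases. In regenerating muscle, macrophages clear dead fibers and FAPs lay down and remodel matrix.

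In the GENCODE annotation of GRCm39, the build named for these files, *Ctsk* lies at chr3:95406567-95416674 and *Ctss* at chr3:95434097-95463715, with 17422 bases and no listed gene between them. *Ctsa* lies at chr2:164674793-164682953 and *Ctsz* at chr2:174269286-174280833. *Ctsc* lies at chr7:87927293-87960097 and *Ctsd* at chr7:141929648-141941776. *Ctsb* lies at chr14:63359911-63383373, *Ctsh* at chr9:89936205-89958143 and *Ctsl* at chr13:64507151-64518705.

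Promoter windows of 4 members are shown because the neighbors *Ctsk* and *Ctss* were found in different cell classes, and because *Ctsd* and *Ctsa* carry the 8-letter palindrome TCACGTGA, a form of the E-box that lysosomal gene regulators such as TFEB are known to bind. The windows run from 250 bases before to 30 after a RefSeq start, in the GRCm38.p6 build of that table, 5′ to 3′ on the gene's strand. Capitals mark TCACGTGA in *Ctsd* and in the second listed start of *Ctsa*, and in *Ctss* the letters ACTTCCTC, the reverse complement of the ETS-type motif GAGGAAGT. No capitals are set in *Ctsk*.
Ctsk, chr3:95498960-95499239, plus strand: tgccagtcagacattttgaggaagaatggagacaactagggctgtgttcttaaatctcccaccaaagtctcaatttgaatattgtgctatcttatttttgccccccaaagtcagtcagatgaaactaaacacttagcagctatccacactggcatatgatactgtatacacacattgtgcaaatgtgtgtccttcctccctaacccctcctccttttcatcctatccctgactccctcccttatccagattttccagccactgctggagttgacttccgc
Ctss, chr3:95526536-95526815, plus strand: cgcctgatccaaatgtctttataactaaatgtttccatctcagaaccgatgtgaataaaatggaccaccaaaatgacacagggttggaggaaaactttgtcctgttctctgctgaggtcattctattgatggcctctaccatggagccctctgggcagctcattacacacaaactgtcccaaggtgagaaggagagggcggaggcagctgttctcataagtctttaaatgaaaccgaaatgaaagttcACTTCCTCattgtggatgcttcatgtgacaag
Ctsd, chr7:142387798-142388077, minus strand: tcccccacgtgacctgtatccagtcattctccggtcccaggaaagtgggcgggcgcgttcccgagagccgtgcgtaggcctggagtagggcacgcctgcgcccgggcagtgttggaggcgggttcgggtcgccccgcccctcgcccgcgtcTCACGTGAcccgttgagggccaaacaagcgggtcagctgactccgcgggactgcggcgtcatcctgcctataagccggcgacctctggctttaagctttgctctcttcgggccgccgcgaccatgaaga
Ctsa, chr2:164833523-164833802, plus strand: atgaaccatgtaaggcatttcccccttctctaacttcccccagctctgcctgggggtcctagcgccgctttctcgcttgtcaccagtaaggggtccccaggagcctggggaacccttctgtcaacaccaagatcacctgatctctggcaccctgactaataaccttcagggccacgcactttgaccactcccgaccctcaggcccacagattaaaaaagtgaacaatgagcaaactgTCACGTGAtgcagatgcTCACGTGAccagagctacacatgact
The table held 8 windows for 7 of the 9 members and none for *Ctsb* or *Ctsh*. Searched on both strands, TCACGTGA was in 0.931% of all 32851 windows and in those of *Ctsa* and *Ctsd*. The shorter CACGTG, which lies inside TCACGTGA, was in 6.79% of all windows and in those of *Ctsa*, *Ctsd* and *Ctsl*. GAGGAAGT was in 2.82% of all windows and in those of *Ctsc* and *Ctss*. The motif TGAGTCA was in 4.94% of all windows and in no member's window. GGGCGG, a GC box, was in 34.7% of all windows and in those of *Ctsc*, *Ctsd*, *Ctss* and *Ctsz*. These matches describe letters and were not tested as sites.

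Cathepsin mRNA was concentrated in the macrophage-like class. The 9 genes together made up 21730 CPM of macrophage-like mRNA in the control day 5 library, 23918 in hypothyroid day 5, 9729 in control day 14 and 16231 in hypothyroid day 14. In FAP-like cells the same sum ran from 2059 to 2474 CPM over all 6 libraries. The macrophage-like sum was thus 10.6-fold (10.3 to 10.8) above the FAP-like sum in control day 5, 11.3-fold (11.2 to 11.5) in hypothyroid day 5, 3.93-fold (3.78 to 4.09) in control day 14 and 7.26-fold (7.11 to 7.41) in hypothyroid day 14. The library-wide sum was highest where macrophage-like cells were most frequent. Hypothyroid day 5, with 24.4% macrophage-like cells, had the highest library-wide sum at 6178 CPM, against 2987 CPM and 7.29% in control day 5, and in whole libraries a higher share of a class and more RNA per cell cannot be told apart.

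**Figure D1:**
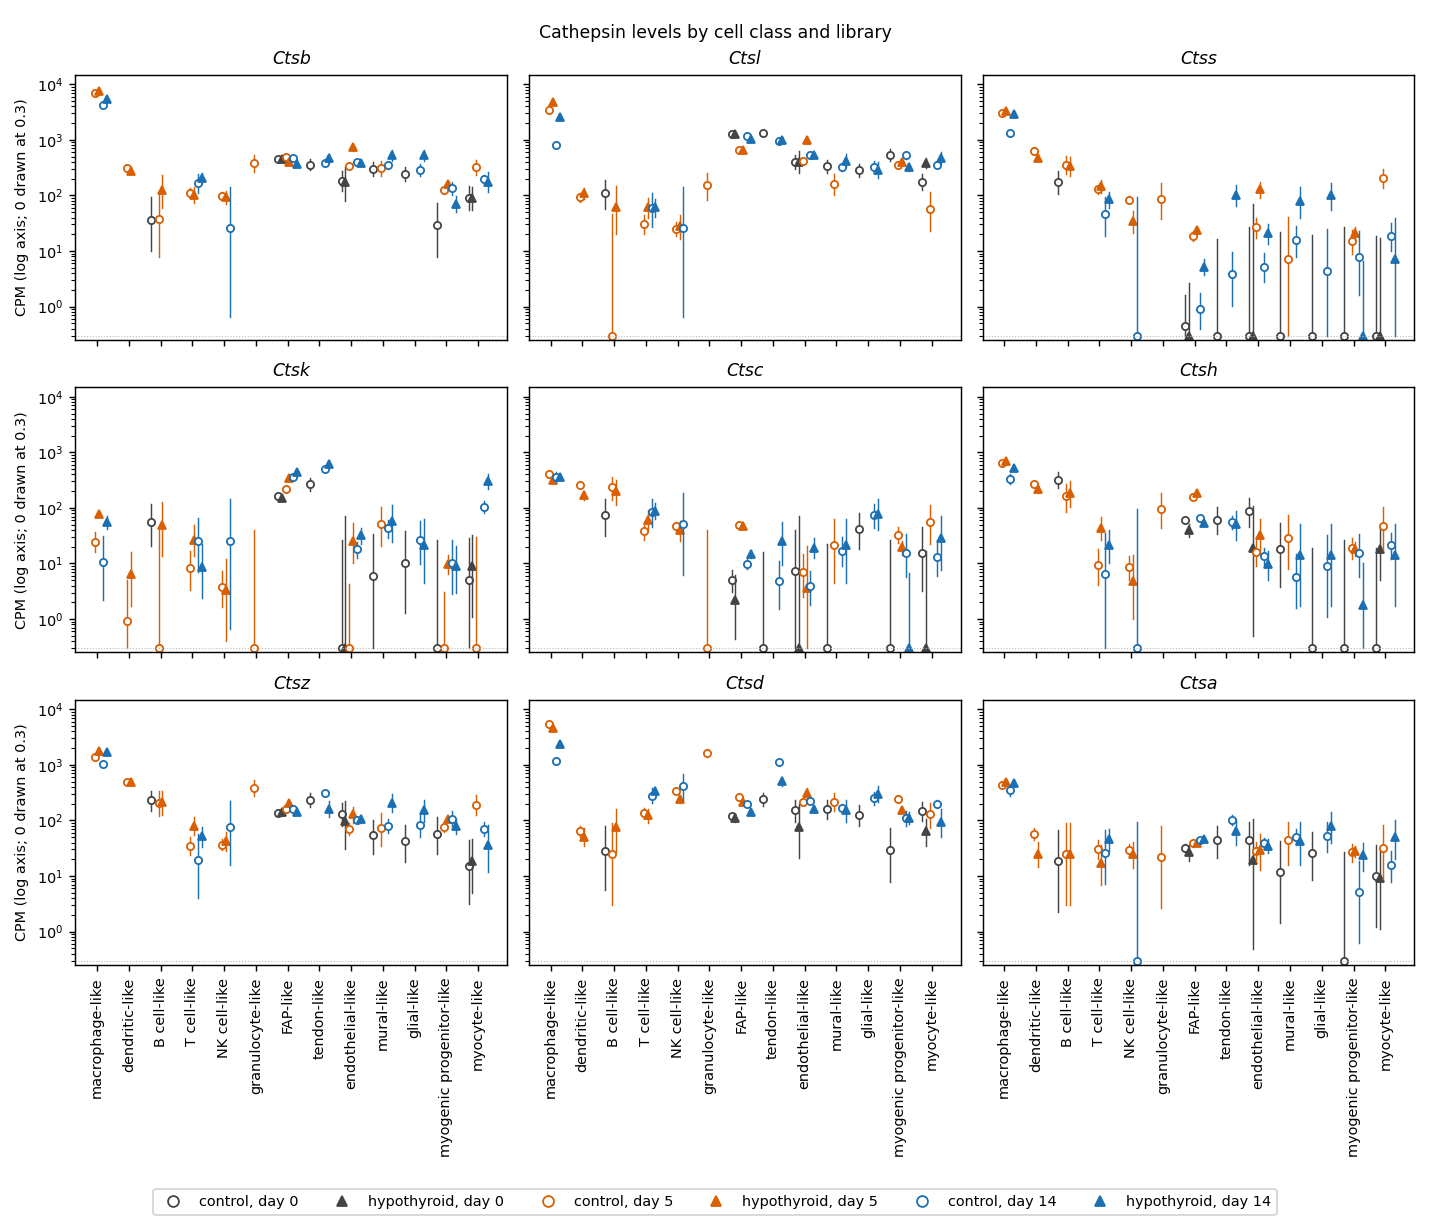
Level of each cathepsin in each cell class and library, in CPM on a log scale, for pools of at least 20 cells, with open circles for control, filled triangles for hypothyroid, colors for days and bars for exact 95% counting intervals. The macrophage-like pools hold the highest value of 8 of the 9 genes, and *Ctsk* is highest in tendon-like and FAP-like pools.

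Among the cysteine endopeptidases, *Ctsb*, a broad lysosomal protease, was detected in 65.6% of all cells. Its macrophage-like level was 7013 CPM in control day 5, 7692 in hypothyroid day 5, 4317 in control day 14 and 5332 in hypothyroid day 14. FAP-like *Ctsb* was 363 to 483 CPM over the 6 libraries, and no FAP-like pool reached the lowest macrophage-like pool. *Ctsl*, the other broad endopeptidase, was 3409 and 4837 CPM in macrophage-like cells of control and hypothyroid day 5, and 814 and 2561 CPM at day 14. In FAP-like cells *Ctsl* was 1293 and 1286 CPM at day 0, 665 and 664 at day 5, and 1169 and 1026 at day 14 (control, then hypothyroid). The class order of *Ctsl* therefore turned in 1 library: macrophage-like cells stood 5.13-fold above FAP-like cells in control day 5 but at 0.696-fold (0.608 to 0.794) in control day 14, while hypothyroid day 14 gave 2.50-fold.

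*Ctss*, the cysteine protease of MHC class II processing, was highest in macrophage-like and dendritic-like cells. Macrophage-like cells had 3033, 3362, 1346 and 2908 CPM (control day 5, hypothyroid day 5, control day 14, hypothyroid day 14). Dendritic-like cells followed at 620 CPM (control) and 476 CPM (hypothyroid) at day 5, and B cell-like cells at 175 CPM in control day 0 and 358 and 337 CPM at day 5. Myocyte-like cells of control day 5 had 208 CPM (136 to 305), on 26 UMIs in 29 cells. FAP-like cells had 0.453 CPM in control day 0, on 2 UMIs, and no *Ctss* UMI among 271 cells in hypothyroid day 0, which allows up to 2.16 CPM. Macrophage-like cells were 7.29%, 24.4%, 2.06% and 7.58% of the cells in these 4 libraries and held 59.4%, 89.4%, 67.1% and 91.1% of their *Ctss* UMIs.

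*Ctsk*, the collagen-degrading member, was held by stromal classes, where *Ctss* was low. FAP-like cells held 77.8% to 88.4% of all *Ctsk* UMIs of each library, and macrophage-like cells at most 7.0%. Its FAP-like levels were 161 and 152 CPM at day 0, 219 and 347 at day 5, and 353 and 448 at day 14 (control, then hypothyroid). Tendon-like cells had 267 CPM in control day 0, 501 in control day 14 and 615 in hypothyroid day 14. Over the 49 pools the log2 levels of *Ctsk* and *Ctss* had a Pearson correlation of -0.05, and pools of 1 library share that library.

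The exopeptidases were also highest in macrophage-like cells, with lower levels in several other classes. *Ctsz*, a carboxypeptidase also called cathepsin X, was 1386, 1757, 1046 and 1671 CPM in macrophage-like cells and 136 to 202 CPM in FAP-like cells. *Ctsh*, an aminopeptidase, was 631, 701, 336 and 513 CPM in macrophage-like cells and 40.2 to 183 CPM in FAP-like cells. B cell-like cells of control day 0 had 322 CPM of *Ctsh*, and dendritic-like cells had 267 and 222 CPM at day 5. *Ctsc*, the dipeptidyl peptidase that activates granule proteases, was 403, 319, 361 and 361 CPM in macrophage-like cells, 258 and 168 CPM in dendritic-like cells and 235 and 199 CPM in B cell-like cells of day 5. NK cell-like cells, which carry granzymes, had 46.7 and 39.3 CPM of *Ctsc* at day 5. The granulocyte-like pool of control day 5, with 31 cells, had no *Ctsc* UMI.

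*Ctsd*, the aspartic protease, was 5391 and 4684 CPM in macrophage-like cells of control and hypothyroid day 5, and 1153 and 2357 CPM at day 14. Outside macrophage-like cells its highest pools were granulocyte-like cells of control day 5, at 1628 CPM, and tendon-like cells of control day 14, at 1136 CPM. *Ctsa*, the serine carboxypeptidase that also protects lysosomal sialidase, was 439, 489, 346 and 472 CPM in macrophage-like cells and 26.6 to 46.7 CPM in FAP-like cells.

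The question put by the diets was whether hypothyroidism changed these levels within a class. At day 14 the 9 genes had ratios of 1 or above in hypothyroid over control macrophage-like cells, with *Ctsk*, *Ctsl*, *Ctss* and *Ctsd* over 2-fold higher. *Ctsl* was 3.15-fold higher (2.75 to 3.62), *Ctss* 2.16-fold (1.94 to 2.41) and *Ctsd* 2.04-fold (1.82 to 2.30). *Ctsk* was 5.15-fold higher (1.68 to 25.6), on 64 against 3 UMIs. The other 5 ran from *Ctsc*, equal at 361 CPM in both, and *Ctsb* at 1.24 (1.16 to 1.31) to *Ctsa* at 1.36, *Ctsh* at 1.53 and *Ctsz* at 1.60 (1.41 to 1.81). Of all genes with at least 50 UMIs in both pools together, 7.55% were past 2-fold higher, and the median over the 9 members was 1.60 against 1.01 over all genes. The pools were 68 control and 125 hypothyroid cells with median depths of 3946 and 6865 UMIs. With the later cell columns of unstated condition added, none of the 9 was past 2-fold (*Ctsl* 1.10, *Ctss* 1.12, *Ctsd* 1.06). Only control day 14 has such columns, in runs of 1152 and 1649, and hypothyroid day 14 has none. As the diet and day of the added cells are unknown, that setting cannot decide whether the ratios hold. Without the single cell richest in each gene, *Ctsd* dropped just under 2-fold.

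At day 5 the same comparison gave ratios on both sides of 1. *Ctsl* was 1.42-fold (1.37 to 1.47) and *Ctsz* 1.27-fold (1.20 to 1.34) in hypothyroid over control macrophage-like cells, whereas *Ctsd* was 0.869-fold (0.843 to 0.895) and *Ctsc* 0.791-fold (0.708 to 0.886). *Ctsb*, *Ctsa*, *Ctsh* and *Ctss* lay at 1.10 or 1.11. *Ctsk* alone was past 2-fold, at 3.16 (2.10 to 4.95), against 5.20% of all genes. The median was 1.11 for the 9 members and 0.837 for all genes, so CPM ratios of this pair of pools were centered below 1. *Ctsk* rested on few cells: 1 cell held 13 of the 25 control UMIs, and 1 cell of 33178 UMIs held 85 of the 348 hypothyroid UMIs. The shares of macrophage-like cells with a *Ctsk* UMI were 5.65% and 15.2%, and 0.581% and 3.21% once each cell was thinned to 1000 UMIs. The 12 FAP markers summed to 326 and 863 CPM in these macrophage-like pools, and to 746 and 1199 CPM in those of day 14 (control, then hypothyroid), and their part in the *Ctsk* ratios was not tested.

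**Figure D2:**
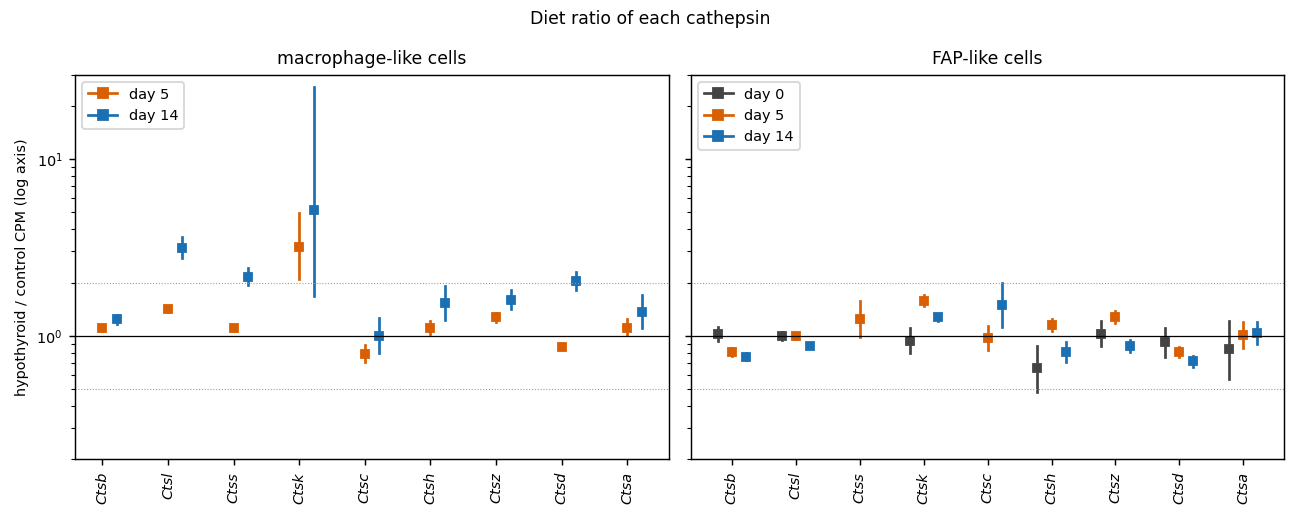
Ratio of hypothyroid to control level of each cathepsin in macrophage-like and FAP-like cells by day, on a log scale, with exact 95% counting intervals. The day 14 macrophage-like ratios of *Ctsl*, *Ctss*, *Ctsd* and *Ctsk* lie above 2, and no FAP-like ratio with at least 50 UMIs does.

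From day 5 to day 14, *Ctsd*, *Ctsl* and *Ctss* were lower in control macrophage-like cells. The day 14 level was 0.214-fold (0.191 to 0.239) of day 5 for *Ctsd*, 0.239-fold (0.208 to 0.273) for *Ctsl* and 0.444-fold (0.398 to 0.494) for *Ctss*, with *Ctsb* at 0.616. With the later cell columns added, *Ctsd* was at 0.499, *Ctsl* at 0.839 and *Ctss* at 0.989. As first given, these were 3 of the 8 members with enough UMIs, beside 12.8% of all genes past 2-fold lower. In hypothyroid macrophage-like cells none of the 9 was past 2-fold lower, beside 3.70% of all genes, though *Ctsd* at 0.503 and *Ctsl* at 0.530 lay at the limit. *Ctsc* stood at 0.895 in control and 1.13 in hypothyroid cells.

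Macrophage-like cells differed among themselves, and the mix differed between diets. Cells were split at 1000 CPM of the complement genes *C1qa*, *C1qb* and *C1qc* together, a marker of mature tissue macrophages, with the limit set after the values were seen. C1q-high cells were 48.6% of the class in control day 5 (86 cells), 91.0% in hypothyroid day 5 (478 cells), 82.4% in control day 14 (56 cells) and 86.4% in hypothyroid day 14 (108 cells). In control day 5, C1q-high cells had 8.03-fold (7.13 to 9.07) the *Ctsl*, 6.39-fold (5.86 to 6.98) the *Ctsd*, 3.70-fold (3.48 to 3.94) the *Ctsb* and 2.13-fold (1.97 to 2.31) the *Ctss* of C1q-low cells. *Ctsc* was level between the subsets, at 1.03-fold (0.846 to 1.27). For *Ctsl*, 1 cell held 894 of the 3138 UMIs of the C1q-high subset, against 297 UMIs in all C1q-low cells.

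Within C1q-high cells of day 5 the diet ratio of the summed cathepsins was 0.781 (0.769 to 0.793), against 1.10 over the whole class, so the direction differed. *Ctsd* was 8480 CPM in control and 4895 CPM in hypothyroid C1q-high cells, a ratio of 0.577 (0.559 to 0.596), and *Ctsb* was 10241 and 8014 CPM, a ratio of 0.783 (0.761 to 0.805). *Ctsl* was 5481 and 5067 CPM, a ratio of 0.924 where the whole class gave 1.42. In control, 894 of the 3138 *Ctsl* UMIs of C1q-high cells came from 1 cell, and the ratio in C1q-high cells was not computed without it. Within C1q-low cells (91 control, 47 hypothyroid) the sum ratio was 0.989 (0.937 to 1.04). In the C1q-high cells of day 5, *Ctsa*, *Ctsh* and *Ctss* were also below 1, at 0.787, 0.829 and 0.873, whereas *Ctsz* was 1.04 and *Ctsk* 2.08. At day 14 the diet ratios in C1q-high cells were above 1 for 8 members, and *Ctsc* was 0.845 (0.672 to 1.07). There *Ctsl* was 2.79-fold (2.43 to 3.21), *Ctsd* 2.01-fold (1.77 to 2.30) and *Ctss* 1.85-fold (1.66 to 2.08) higher in hypothyroid cells. *Ctsk* there was 57 UMIs against 1, a ratio of 11.8 (2.04 to 476). Thus 3 of 9 members were past 2-fold higher, beside 7.68% of all genes in these cells.

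**Figure D3:**
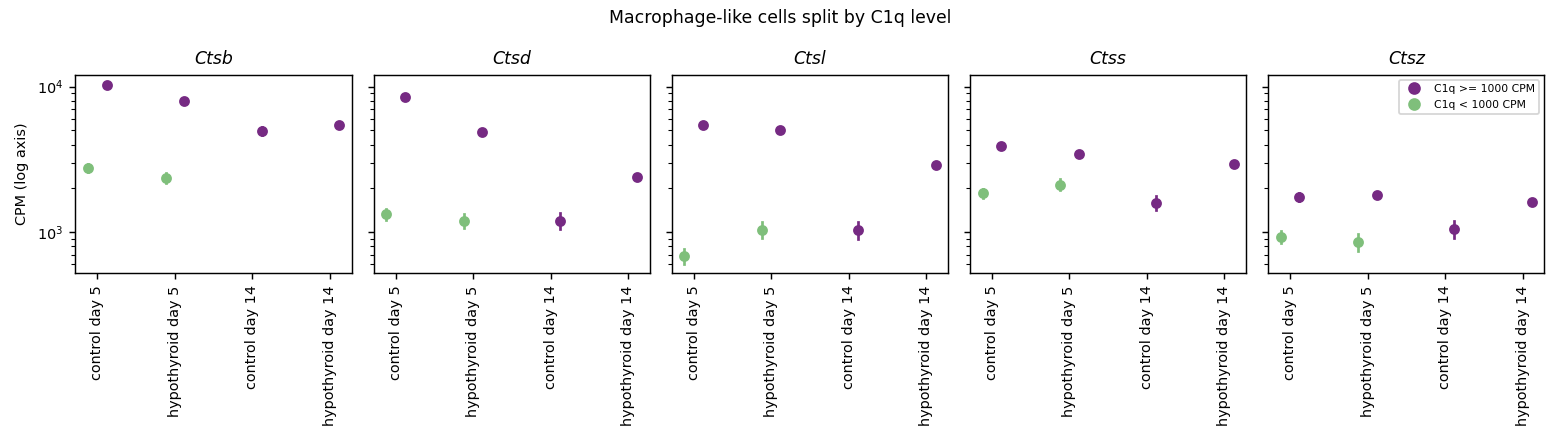
Cathepsin levels in macrophage-like cells at or above and below 1000 CPM of C1q genes, in CPM on a log scale, by library, with bars for exact 95% counting intervals and pools under 20 cells left out. Control day 5 C1q-high cells have the highest *Ctsb* (10241 CPM) and *Ctsd* (8480 CPM). C1q-low cells are drawn for day 5 alone, with *Ctsl* at 683 and 1033 CPM and *Ctsb* at 2765 and 2367 CPM (control, then hypothyroid).

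Single cells spread widely. The median macrophage-like cell had 558 CPM of *Ctsl* in control day 5, 1749 in hypothyroid day 5, 284 in control day 14 and 748 in hypothyroid day 14, all well below the pooled levels. One cell held 26.0% of the *Ctsl* UMIs of control day 5, and without it the pool stood at 2607 CPM. For *Ctsb* the median cells were 3791, 6521, 4702 and 4640 CPM, which puts the 2 day 14 libraries side by side. For *Ctss* they were 1973, 2951, 1197 and 2077 CPM, highest in hypothyroid day 5 and lowest in control day 14, as in the pooled levels. For *Ctsd* they were 1408, 2725, 911 and 1126 CPM, so that the median cell was higher in hypothyroid day 5, where the pooled ratio was below 1, and the day 14 medians lay closer together than the pooled levels.

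In FAP-like cells some members differed by day. From day 0 to day 5, *Ctsc*, *Ctsh* and *Ctss* were over 2-fold higher in both diets. *Ctsc* was 4.98 CPM at day 0 and 49.1 CPM at day 5 in control cells, 9.86-fold (6.38 to 16.0), and 2.16 and 47.6 CPM in hypothyroid cells, 22.1-fold (7.52 to 107) on 3 day 0 UMIs. *Ctsh* was 2.60-fold higher in control and 4.54-fold in hypothyroid cells. *Ctss* was 18.9 CPM in control and 23.5 CPM in hypothyroid FAP-like cells at day 5, which is 41.7-fold (11.3 to 349) on 2 control day 0 UMIs and at least 10.9-fold over the empty hypothyroid day 0 pool. *Ctsd* was past the limit in control cells (2.21-fold) and *Ctsk* in hypothyroid cells (2.29-fold, 1.99 to 2.64). *Ctsl* went the other way, to 0.514-fold (0.493 to 0.536) in control and 0.517-fold in hypothyroid cells. So 4 of 9 members were past 2-fold higher in each diet, beside 18.5% of all genes in control and 16.8% in hypothyroid cells. With the later cell columns added, 2 were past it in control cells (*Ctsc* 2.76, *Ctss* 5.07) and 1 in hypothyroid cells (*Ctsc* 2.44), beside 9.53% and 3.73% of all genes. The later columns of day 0 are copies of injured cells, from hypothyroid day 14 in control and from control day 5 in hypothyroid. That setting therefore cannot decide whether the differences from day 0 hold.

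At day 14 *Ctsc*, *Ctsh* and *Ctss* were lower again, at 0.203, 0.410 and 0.0474 of their day 5 level in control cells and at 0.312, 0.289 and 0.220 in hypothyroid cells. These 3 of 9 stood beside 15.0% of all genes past 2-fold lower in control and 14.7% in hypothyroid cells. *Ctsl* was back at 1169 and 1026 CPM, whereas *Ctsk* was still higher than at day 5, 1.61-fold in control and 1.29-fold in hypothyroid cells.

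**Figure D4:**
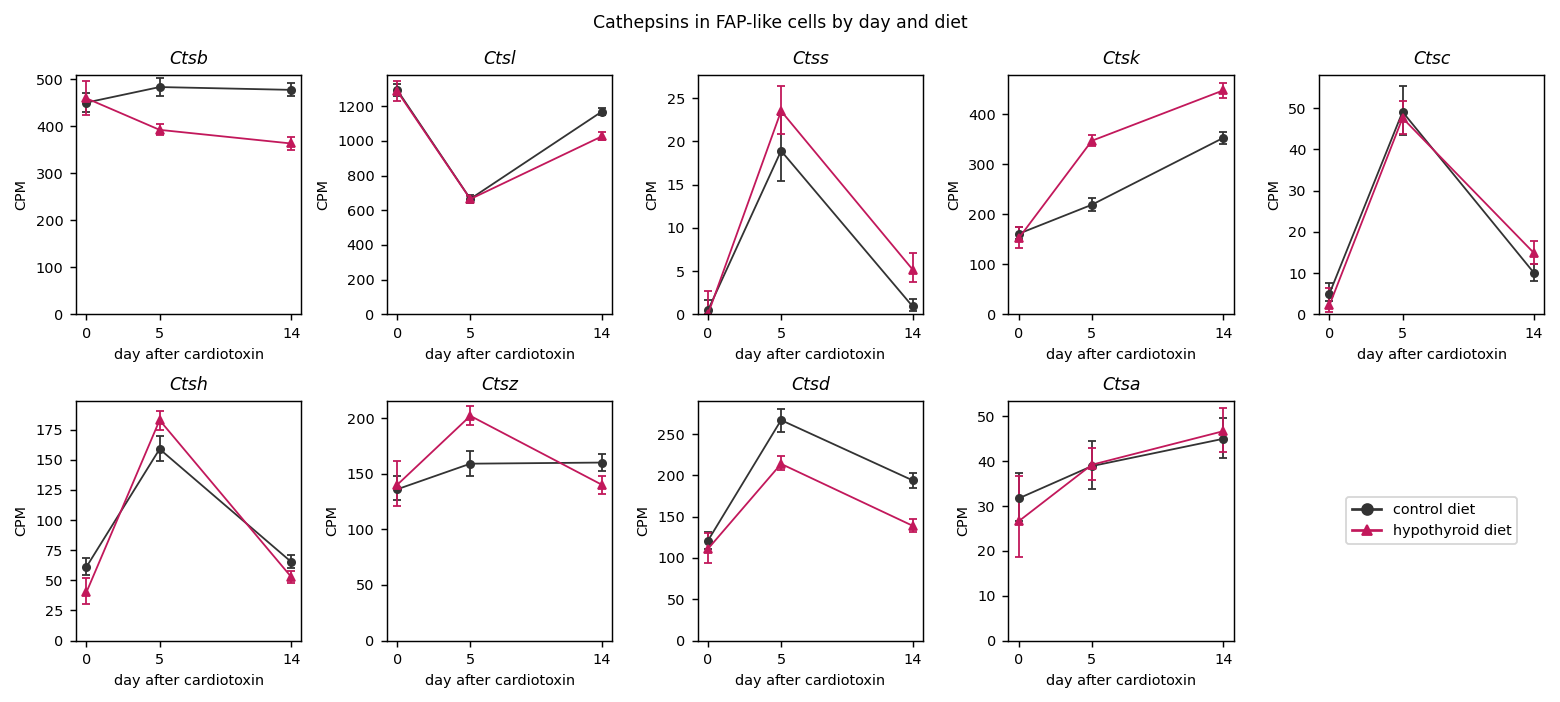
Level of cathepsins in FAP-like cells against day after injury (days 0, 5 and 14 to scale), in CPM on linear axes that start at 0 and differ between genes, for both diets, with exact 95% counting intervals. *Ctsc*, *Ctsh* and *Ctss* peak at day 5, *Ctsl* is lowest at day 5, and *Ctsk* is highest at day 14.

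No member was past 2-fold between diets in FAP-like cells on any day. At day 0 this was 0 of 7 members with enough UMIs, beside 2.17% of all genes past 2-fold higher and 2.58% lower. At day 5 it was 0 of 9, beside 2.58% higher and 9.32% lower, with the median of all genes at 0.795 and that of the members at 1.01. *Ctsk* was the highest member, at 1.58-fold (1.48 to 1.69), followed by *Ctsz* at 1.28, while *Ctsb* was 0.812 and *Ctsd* 0.805. At day 14 it was 0 of 8, beside 1.10% higher and 5.16% lower, with *Ctsk* at 1.27-fold (1.21 to 1.33), *Ctsb* at 0.762 and *Ctsd* at 0.716. *Ctss*, with 40 and 8 UMIs, was too sparse to count and gave 5.76 (2.66 to 14.2).

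*Ctsk* was also read by FAP state, where a state needed at least 2 of its markers detected. Cells of 1 state alone had under 2 markers of the other, and cells with neither state had under 2 of each. In FAP-like cells of the matrix state alone (*Cthrc1*, *Tnc*, *Lrrc15*, *Postn*), *Ctsk* was 226 and 375 CPM at day 5 and 561 and 637 CPM at day 14 (control, then hypothyroid). In cells of the progenitor state alone (*Pi16*, *Dpp4*, *Cd248*, *Sema3c*) it was 146 and 134 CPM at day 0, 258 and 219 at day 5, and 293 and 373 at day 14. Cells with both states, 46.1% and 38.0% of the class at day 5, had 208 and 321 CPM of *Ctsk* then, and cells with neither had 346 and 390 CPM. Depth differed between these pools: in control day 5 the 175 cells with both states held 3029822 UMIs and the 28 with neither 92392. The part of depth in the state differences was not tested. *Ctsc* at day 5 was 69.2 and 68.4 CPM in matrix-state cells, 36.0 and 26.9 CPM in cells with both states and 5.61 and 12.6 CPM in progenitor-state cells, the latter on 1 and 3 UMIs. Cells with neither state had 108 and 58.5 CPM of *Ctsc*, on 10 and 9 UMIs.

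Low *Ctss* was also found outside the myeloid and B cell classes. Macrophage transcripts of the same pools are given beside it, and their part in it was not tested. In FAP-like cells, *Lyz2*, a lysozyme gene of myeloid cells, was absent in control day 0, and 9 of the 14 macrophage markers were at 0, *C1qa*, *C1qc* and *Adgre1* among them. At day 5 all 14 were detected in both diets, and *Lyz2* was 14.3 CPM in control and 63.9 CPM in hypothyroid FAP-like cells. The summed level of the list was 131 and 145 CPM at day 0, 156 and 208 at day 5, and 93.0 and 98.3 at day 14, whereas *Ctss* was 0.896 and 5.16 CPM at day 14. The list was thus lowest at day 14 and *Ctss* at day 0. The share of FAP-like cells with a *Ctss* UMI was 7.63% and 9.95% at day 5, at median depths of 12416 and 13920 UMIs, and 1.07% and 1.71% after thinning.

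In endothelial-like cells of day 5, *Ctsb*, *Ctsl* and *Ctss* were past 2-fold higher in hypothyroid cells (2.18, 2.33 and 4.81-fold), 3 of the 5 members with enough UMIs, beside 3.54% of all genes. These 36 hypothyroid cells carried 675 CPM of the macrophage list, with 10 of 14 detected, against 87.7 CPM and 11 of 14 in the 132 control cells, and 2014 against 222 CPM of the FAP list. In glial-like cells of day 14, *Ctss* was 4.42 and 101 CPM with *Lyz2* at 808 and 1397 CPM and the list at 941 and 2110 CPM, and in mural-like cells *Ctss* was 15.7 and 78.9 CPM with *Lyz2* at 81.2 and 517 CPM. The myocyte-like pool of control day 5, with 208 CPM of *Ctss*, had 144 CPM of the list and 10 of its 14 markers at 0, *Csf1r*, *C1qa*, *C1qb* and *C1qc* among them. The tendon-like *Ctss* of hypothyroid day 14, 102 CPM, came to 91.7% from 1 cell, and was 10.2 CPM without it. *Ctsk* in myocyte-like cells of day 14, 106 and 306 CPM, came with the FAP transcript *Dcn* at 1866 and 3428 CPM.

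**Figure D5:**
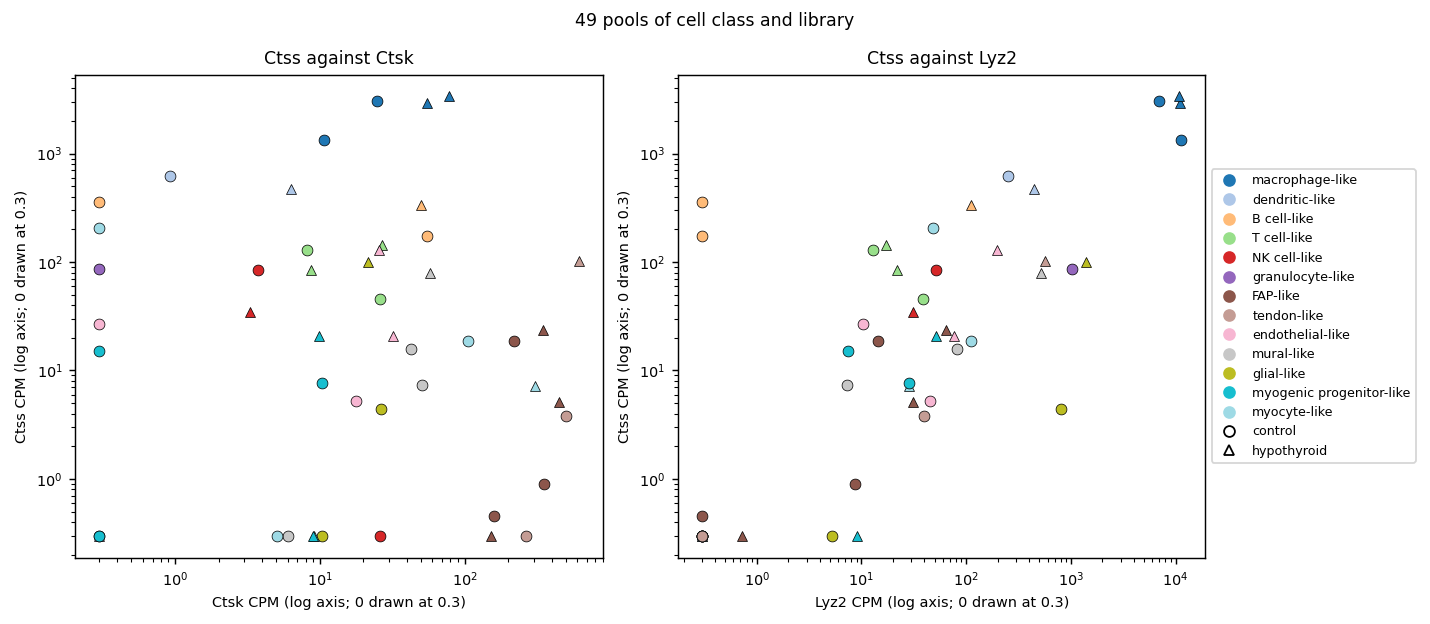
*Ctss* level against the level of *Ctsk* (left) and of *Lyz2* (right) over 49 pools of a cell class (color) and library (circles control, triangles hypothyroid), in CPM on log axes. Macrophage-like pools have the highest *Ctss* (1346 to 3362 CPM). They also have the highest *Lyz2*, which is among the markers used to assign that class. Dendritic-like and B cell-like pools have *Ctss* with less *Lyz2*, and FAP-like and tendon-like pools have *Ctsk* with low *Ctss*.

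Outside the immune classes *Ctsd* was highest in tendon-like cells. It was 245 CPM in control day 0, 1136 in control day 14 and 504 in hypothyroid day 14. The control day 14 level was 4.64-fold (3.55 to 6.18) that of day 0, where *Ctsa* was also past 2-fold higher (2.32, 1.22 to 4.99), 2 of the 7 members with enough UMIs, beside 11.4% of all genes. Hypothyroid day 14 was 0.444-fold (0.365 to 0.536) of control day 14, from 34 and 171 cells. The single cell richest in *Ctsd* held 23.2%, 11.1% and 37.0% of its UMIs (control day 0, control day 14, hypothyroid day 14). Without that cell the levels were 198, 1026 and 384 CPM. The macrophage list summed to 280, 304 and 1089 CPM in these pools, so its level was highest where *Ctsd* was between the others.

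In myogenic progenitor-like cells the cathepsins were low, and *Ctsl* ran from 325 to 535 CPM. At day 5 (94 control and 163 hypothyroid cells) *Ctsb* was 125 and 160 CPM, a ratio of 1.27 (1.06 to 1.54), *Ctsd* 244 and 154 CPM, a ratio of 0.631 (0.542 to 0.735), and *Ctsc* 33.2 and 19.4 CPM. *Ctss* was 15.0 and 20.8 CPM, on 18 and 57 UMIs, a ratio of 1.39 (0.807 to 2.51). None of the 8 members with enough UMIs was past 2-fold in either direction, beside 2.55% of all genes higher and 8.56% lower. *Lyz2* was 7.48 and 51.5 CPM in these cells. Cells with at least 3 myogenic and under 3 macrophage markers had 14.2 and 5.75 CPM of *Ctss* at day 5. Cells with at least 3 of both, 6 control and 21 hypothyroid, had 698 and 808 CPM of *Ctss* and 1846 and 2312 CPM of *Ctsb*. The 21 had a median of 26928 UMIs, against 14105 in hypothyroid day 5 cells of the class. No doublet caller was run.

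Other genes of the lysosome were read in the same day 14 macrophage-like comparison of diets, where 7.55% of all genes were past 2-fold higher and 3.51% lower. Of 15 lysosomal hydrolases with enough UMIs, 1 was past 2-fold higher, *Acp5*, the tartrate-resistant acid phosphatase of osteoclasts and macrophages, at 3.11-fold (2.15 to 4.68). Their median ratio was 1.34, with *Psap* at 1.63 (1.51 to 1.76) and *Lgmn*, a protease that processes cathepsins, at 1.73 (1.46 to 2.05). Of 16 V-ATPase genes, which acidify the lysosome, *Atp6v0d2* (4.83-fold, 2.88 to 8.73) and *Atp6v0a1* (5.25-fold, 1.98 to 19.7, on 87 and 4 UMIs) were higher, with a median of 1.10. None of 8 lysosomal membrane genes passed, with a median of 1.22. Of 3 sorting genes, *Igf2r*, the cation-independent mannose 6-phosphate receptor, was higher (2.69, 1.24 to 6.91). None of 7 MHC class II loading genes passed, with a median of 0.727, and the partner of *Ctss* in that pathway, *Cd74*, was 0.681-fold (0.660 to 0.702). The cystatins, which inhibit cysteine cathepsins, were near 1, with *Cst3* at 0.947 and *Cstb* at 0.899. No granzyme or other cathepsin, and 2 of the 4 transcription factors, had enough UMIs, and neither of the 2 passed.

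At day 5, 1 of 20 hydrolases passed in the macrophage-like comparison, again *Acp5* (2.17, 1.84 to 2.58), beside 5.20% of all genes past 2-fold higher. The median of the hydrolases was 0.938. *Cst3* was 1389 CPM in control and 2837 CPM in hypothyroid macrophage-like cells, 2.04-fold (1.93 to 2.16). Among the 4 transcription factors of the lysosome, *Tfeb* (0.499, 0.306 to 0.836) and *Tfe3* were past 2-fold lower, beside 11.5% of all genes. None of 10 membrane, 16 V-ATPase or 6 sorting genes passed, and 1 of 7 class II genes did, *H2-Aa* at 0.481 (0.459 to 0.504). From day 5 to day 14 in control macrophage-like cells, 5 of 17 hydrolases were past 2-fold lower, *Psap* (0.420) and *Lgmn* (0.283) among them, and 5 of 7 class II genes were past 2-fold higher, *Cd74* at 5.13 (4.92 to 5.35). Of all genes, 12.8% were lower and 5.58% higher in that comparison.

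In FAP-like cells the inhibitor *Cstb* was past 2-fold between diets at days 5 and 14. It was 301 and 637 CPM at day 5, 2.12-fold (2.01 to 2.24), and 377 and 954 CPM at day 14, 2.53-fold (2.43 to 2.64). Of all genes, 2.58% and 1.10% were past 2-fold higher on these days. The day 0 ratio of *Cstb* and the counts over the whole lists are not given here for FAP-like cells. *Cst3* was 0.593-fold at day 0, 1.98-fold (1.90 to 2.07) at day 5 and 0.752-fold at day 14. In control FAP-like cells *Cst3* was 1382 CPM at day 0 and 440 CPM at day 5, 0.318-fold (0.303 to 0.334), and *Lgmn* was 11.4-fold higher (8.92 to 14.9). In that comparison 11.4% of all genes were past 2-fold lower and 18.5% higher.

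The genes most like each member were found by the Pearson correlation of log2(CPM + 1) over the 49 pools, among 9247 genes with at least 500 UMIs. These r values are descriptions, and pools share libraries and depth. *Ctsb* was closest to *Psap* (0.886) and *Grn* (0.861), and *Ctsa* to *Ctsb* (0.842). *Ctss* was closest to *Slamf7* (0.919) and the class II genes *H2-Eb1* (0.904) and *H2-Ab1* (0.903), and *Ctsc* also to *H2-Ab1* (0.777). *Ctsk* was closest to *Angptl1* (0.814), *Abca9* (0.804) and *Lum* (0.796), a collagen-binding proteoglycan gene. *Ctsl* was closest to *App* (0.840), *Ctsd* to *Hk3* (0.767) and *Ctsb* (0.750), *Ctsh* to *Ctsz* (0.806) and *Ctsz* to *Atp6v0b* (0.848).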

How the data were processed

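Libraries were 10x Genomics 3′ V3 preparations. The authors' processing notes name Cell Ranger, Partek and the mouse genome mm39, and the study's methods add a GENCODE transcript model. The Cell Ranger version was not given in the sources used here. The methods also state limits of UMIs per cell with an upper end of 8000, and 3360 of the 11207 cells used lie above it. The deposited values are log2(CPM + 1) values (CPM, counts per 1000000) per cell and gene, with 12436 genes listed. UMIs were recovered by taking the most frequent value above 0 of a cell as 1 UMI: 99.934% of 39334018 values were whole within 0.05 UMI (or 0.1% of larger counts). Cells were columns of the first alphabetical run of barcodes in each file. Of their barcodes, 12 occur in more than 1 library. A cell took the class whose scaled markers (capped at the mean of the top 1% of cells) led by at least 1.5-fold with at least 2 markers. Margins just under the limit held 493 cells and margins just over it 410. Macrophage-like cells near the C1q limit were 18 from 500 to 1000 CPM and 37 from 1000 to 2000 CPM.

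UMIs were summed per class and library, in pools of at least 20 cells, and scaled to CPM. The interval of a count is the exact Poisson one. Ratios carry exact conditional binomial intervals, and shares of cells Clopper-Pearson intervals. Genes with at least 50 UMIs in a pair of pools were counted, and past 2-fold is a size limit, not a test. A level of 0 was bounded at 3 counts. Genes were named by rule: all members, and from each fixed list those with most UMIs or past 2-fold. Members and lists were chosen with earlier results of these data known. Alternatives are given in the closing section, and the scripts were tested on simulated data. Python 3.11.15, scipy 1.17.1, pandas 2.3.3 and scanpy 1.11.5 were used.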

Additional observations from a re-analysis of the deposited data

How the results depend on the processing

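Counts and ratios were recomputed under other processing choices, and C1q-high cells alone and leaving out the richest cell were added after seeing the data. Of 750 single-gene ratios under the former, 598 stayed within the counting interval and 152 moved. In 34 of them the ratio lay on the other side of 1, and none of these was past 2-fold as reported. Among the added C1q-high ratios, *Ctsa*, *Ctsb*, *Ctsh*, *Ctsl* and *Ctss* of day 5 between diets also turned, to values from 0.783 to 0.924, as did *Ctsc* at day 14 between diets (0.845) and in the control course (1.09). No paired analysis was possible because each diet and day is 1 library, so that no library was left out.

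With all cell columns, members past 2-fold higher were 0 in macrophage-like cells between diets at day 14, 1 in the control day 14 over day 5 course (1 lower), 1 in FAP-like cells between diets at day 0, and 2 (control) and 1 (hypothyroid) from day 0 to day 5. In the same order, the shares of all genes past it were 1.13%, 3.80% (5.81% lower), 8.80%, 9.53% and 3.73%. The macrophage-like over FAP-like sum was then 8.38 in control day 5 and 6.74 in control day 14. At day 0 the added columns copy hypothyroid day 14 cells (control) and control day 5 cells (hypothyroid), so counts that use day 0 are no check. At day 14 only the control library has added columns. The added columns of days 5 and 14 are of unstated condition.

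With Leiden clusters in place of the gate, 0 members were past 2-fold higher at day 5 and 1 was lower in the hypothyroid day 14 over day 5 course, and the sums were 9.49, 9.97 and 6.58 (control day 5, hypothyroid day 5, hypothyroid day 14). A stricter gate gave 11.7, 11.9 and 7.53, and the mean of each cell's own CPM gave 7.45, 9.01 and 6.19 with 1 member lower in that course. With UMIs from the smallest value, 1 was lower in that course, 1 was higher in FAP-like cells at day 14, and the hypothyroid day 14 sum was 6.97. Leaving out mitochondrial, ribosomal and hemoglobin genes gave sums of 10.3 and 10.9 at day 5. A minimum of 10 UMIs put 1 FAP-like member lower at day 0 and 1 higher at day 14. The shares of all genes past 2-fold under these settings are not given here, so these counts carry no comparison with other genes.

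A limit of 1.5-fold put 5 (control) and 2 (hypothyroid) macrophage-like members lower from day 5 to day 14, 1 FAP-like member lower at day 0 and 1 higher at day 5 between diets, 1 lower in each diet from day 0 to day 5, and 2 (control) and 1 (hypothyroid) higher from day 5 to day 14. The shares of all genes past 1.5-fold are not given here, so these counts carry no comparison with other genes. C1q-high cells alone gave 5 (control) and 1 (hypothyroid) lower from day 5 to day 14, beside 11.1% and 3.87% of all genes. Their sums were 15.5, 11.8, 4.47 and 7.48. Without the richest cell of each member, 2 were lower in the hypothyroid course, with no share of all genes given. The sums were then 10.2, 3.75 and 6.87 (control day 5, control day 14, hypothyroid day 14).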
